A study of Homo sapiens with 6 samples.

Results

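The genes described here are the numbered small nucleolar RNA (snoRNA) host genes, SNHG1 to SNHG32 as far as the deposited table lists them, together with GAS5, ZFAS1, EPB41L4A-AS1, DANCR, NEAT1, MALAT1, TUG1, NORAD, CYTOR, OIP5-AS1 and PVT1. They were picked by symbol, with earlier results of these data known, and 38 of the 30267 genes in the table matched. The measurements were total RNA-seq profiles of SW839, an established renal cell carcinoma line, in which RNF25, a RING-type E3 ubiquitin ligase, had been knocked down. The shRNF25 group held 3 libraries of cells with an RNF25 shRNA (a single hairpin, shRNF25B) and the shControl group held 3 libraries of cells with the pLKO vector. According to the study's methods, both were stable populations made by lentiviral infection and puromycin selection. The treatment text of all 6 samples, shControl included, names the shRNF25 plasmid, so the groups follow the sample titles and library names. The library names of shRNF25 form a numbered series, and those of shControl do not. Nothing in the labels says whether the 3 libraries of a group came from separate cultures, and the p-values below measure only the spread between these libraries.

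The table holds normalized counts, that is, reads assigned to a gene divided by a size factor of the library, and between 18647460 and 19943154 reads per library stood behind it. RNF25 itself fell by 1.27 ± 0.15 on the log2 scale (SE, adjusted p = 0.000585, limma), from 694, 534 and 536 normalized counts in the 3 shControl libraries to 214, 246 and 265 in the shRNF25 libraries. The control libraries were the more variable group. Replicate 1 of shControl stood apart, with 12.1% of its reads on mitochondrial genes against 3.58% to 4.44% in the other 5 libraries. Of 10 renal epithelial or renal carcinoma markers in the table, 7 passed the filter on low values, and the summed normalized counts of all 10 ranged from 39127 to 51374 in shControl and from 54422 to 58205 in shRNF25, nearly all of it KRT8 and KRT18. VIM, an intermediate filament gene, was called higher. PAX8, a kidney lineage factor, lay between 76.7 and 140.3, CA9, a carbonic anhydrase of clear cell tumours, between 1.85 and 50.7, and LHX1 was at or near 0. Of 10 markers of other cell types, 4 passed the filter and the sum of all 10 ranged from 491 to 714 in shControl and from 453 to 594 in shRNF25. CD3E, LYZ, ALB and DCN were at or near 0, PECAM1 lay between 350 and 549, and CDH5, an endothelial cadherin, was called lower with 73.0, 103 and 199 in shControl against 3.64, 8.31 and 5.72 in shRNF25. CDH5 passed the filter only through its shControl libraries, the group in which it was high. The part of these markers in the results below was not tested.

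Host genes of this kind are transcribed by RNA polymerase II and spliced. The snoRNAs are cut out of the removed introns and guide the chemical modification of ribosomal RNA. C/D box snoRNAs guide methylation of the ribose, H/ACA box snoRNAs guide the conversion of uridine to pseudouridine, and the related small Cajal body RNAs (scaRNAs) guide the same reactions on spliceosomal RNAs. The spliced host RNA that is left over often codes for no conserved protein and, for several hosts including GAS5, is known to be removed by nonsense-mediated decay when ribosomes read it. Many hosts begin with a 5′ terminal oligopyrimidine (TOP) tract, as messenger RNAs for ribosomal proteins do. NEAT1 and MALAT1 are different. They are long, mainly nuclear RNAs, NEAT1 as the scaffold of paraspeckles and MALAT1 as a component of nuclear speckles, and NORAD is a cytoplasmic RNA that binds Pumilio proteins.

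In the GENCODE 29 annotation (GRCh38), 29 of the 38 genes held at least 1 snoRNA or scaRNA gene on their own strand and 9 held none. GAS5, well known as a host of C/D snoRNAs, was counted among the 9 because no snoRNA gene lies inside it in this annotation. The small RNAs inside the 7 hosts that passed the test between the groups are printed below, because they tell these hosts apart by class. SNORD60 in SNHG19 (chr16:2155023-2155105, minus strand) and SNORD93 in SNHG26 (chr7:22856613-22856686, plus strand) are C/D snoRNAs, and capitals mark the C box TGATGA where that exact string was found and the D box CTGA.
SNORD60: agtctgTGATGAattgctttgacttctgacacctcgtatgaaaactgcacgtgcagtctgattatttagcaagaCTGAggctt
SNORD93: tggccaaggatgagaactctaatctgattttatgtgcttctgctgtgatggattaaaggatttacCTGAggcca

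SNORA26 in DANCR (chr4:52713249-52713370, plus strand) and SNORA71E (chr20:38448084-38448215, plus strand) and SNORA60 (chr20:38449370-38449503, plus strand) in SNHG11 are H/ACA snoRNAs, with the ACA trinucleotide near the 3′ end in capitals.
SNORA26: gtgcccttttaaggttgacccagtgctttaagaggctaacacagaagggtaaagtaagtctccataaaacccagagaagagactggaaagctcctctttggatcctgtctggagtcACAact
SNORA71E: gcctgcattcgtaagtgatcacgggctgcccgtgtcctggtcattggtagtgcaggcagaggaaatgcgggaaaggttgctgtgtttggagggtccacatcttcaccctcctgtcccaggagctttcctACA
SNORA60: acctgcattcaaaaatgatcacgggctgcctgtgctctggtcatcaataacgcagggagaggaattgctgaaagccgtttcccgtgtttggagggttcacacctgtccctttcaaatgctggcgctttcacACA

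The other 3 hosts each hold a scaRNA, SCARNA13 in SNHG10 (chr14:95533355-95533629, minus strand), SCARNA16 in SNHG20 (chr17:77089307-77089493, plus strand) and SCARNA15 in SNHG21 (chr15:82755945-82756071, plus strand). Capitals again mark the ACA near the 3′ end. All 8 sequences were read from the GENCODE 29 transcripts.
SCARNA13: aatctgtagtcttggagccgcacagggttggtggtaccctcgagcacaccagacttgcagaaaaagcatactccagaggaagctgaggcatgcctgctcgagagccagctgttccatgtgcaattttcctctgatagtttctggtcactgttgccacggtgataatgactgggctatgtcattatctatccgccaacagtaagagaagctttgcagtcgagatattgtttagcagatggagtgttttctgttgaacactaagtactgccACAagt
SCARNA16: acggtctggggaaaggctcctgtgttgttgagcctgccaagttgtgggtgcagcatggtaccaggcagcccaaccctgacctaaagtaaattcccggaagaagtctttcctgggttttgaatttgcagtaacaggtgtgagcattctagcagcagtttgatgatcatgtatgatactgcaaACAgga
SCARNA15: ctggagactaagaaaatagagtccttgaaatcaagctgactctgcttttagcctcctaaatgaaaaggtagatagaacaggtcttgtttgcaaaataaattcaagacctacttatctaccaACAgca

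The levels of these genes covered a wide range. Per kilobase of annotated exon, NORAD led with 2366 normalized counts averaged over the 6 libraries, above 98.4% of all tested genes. SNHG1 (503) and SNHG6 (459) followed, then DANCR (379), SNHG32 (329), NEAT1 (324), SNHG29 (313) and TUG1 (313). The libraries of SNHG1 and SNHG6 overlapped on this scale, as did those of SNHG32, NEAT1, SNHG29 and TUG1, so that the order within these runs of neighbours is not larger than the spread. MALAT1 reached 173 per kilobase, above 69.4% of tested genes. At the bottom of the 35 tested genes were CYTOR (20.8), whose annotated exons are long, and SNHG31 (7.34). The 7 genes called between the groups sat in the middle and lower part of this order except for DANCR, with SNHG19 at 119, SNHG11 at 97.4, SNHG26 at 63.7, SNHG10 at 34.3, SNHG20 at 33.2 and SNHG21 at 29.8.

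**Figure D1:**
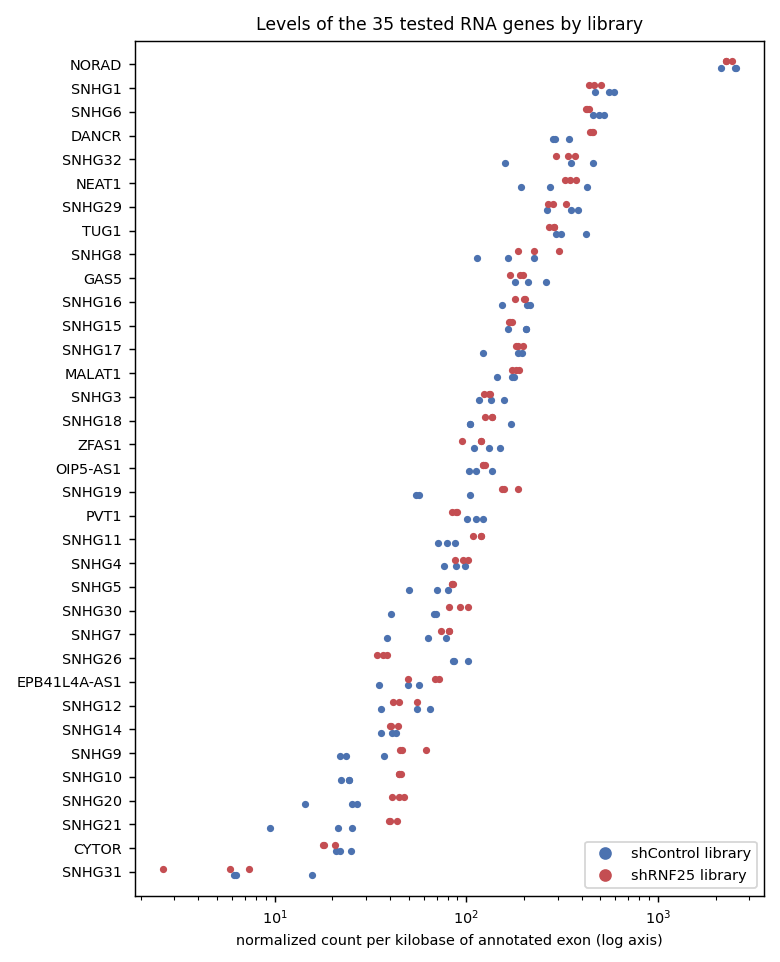
Normalized count per kilobase of annotated exon (log axis) of the 35 tested genes, with a point for each of the 3 shControl and 3 shRNF25 libraries and the genes ordered by their mean. NORAD stands above all others at a mean of 2366, and SNHG31 lies at the bottom at 7.34.

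After RNF25 knockdown 1 host, SNHG26, fell and 6 hosts, SNHG19, SNHG21, SNHG20, SNHG10, DANCR and SNHG11, rose, while NEAT1, MALAT1, NORAD, TUG1, GAS5 and ZFAS1 did not pass the test. Of the 38 genes, 35 had at least 10 normalized counts in at least 3 libraries and were tested within a fit over 16554 genes. An adjusted p under 0.05 was reached by 7 of the 35 (20%), against 21.3% of all tested genes. The 1 gene called lower was 2.86% of the set (10.8% of all tested genes) and the 6 called higher were 17.1% (10.5% of all). The study's criteria also ask for a change of at least 1.5-fold. The study used them with DESeq2, and here they were applied to the limma fit. SNHG26 was then called lower (2.86% of the set, 7.1% of all tested genes) and SNHG19, SNHG21, SNHG20 and SNHG10 were called higher (11.4%, 8.65% of all), together 14.3% of the set against 15.7% of all tested genes. The share of called genes in the set was thus close to the background.

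All 7 calls fell on genes that hold a snoRNA or scaRNA (7 of 27 tested, 25.9%, against 21.3% of all tested genes). Of the 8 tested genes that hold none in GENCODE 29, GAS5 included, 0 were called. PVT1 alone of these 8 had an unadjusted p under 0.05 with limma, and neither edgeR nor DESeq2 called any of them. A difference between these shares was not tested. The median log2 fold change was 0.10 over the 35 genes, 0.18 over the hosts and -0.13 over the genes that hold none, against -0.013 over all tested genes. All shRNF25 values lay on the same side of all shControl values for 14 of the 35 genes (40%, against 42.5% of all tested genes). Of these, 5 were lower in shRNF25 (SNHG26, PVT1, TUG1, CYTOR and SNHG6, 14.3% against 21.8% of all) and 9 were higher (the 6 called ones and SNHG5, SNHG9 and SNHG30, 25.7% against 20.7% of all). For a single gene the two-sided exact permutation test of 3 against 3 libraries cannot go below p = 0.1, and these 14 genes reached it.

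**Figure D2:**
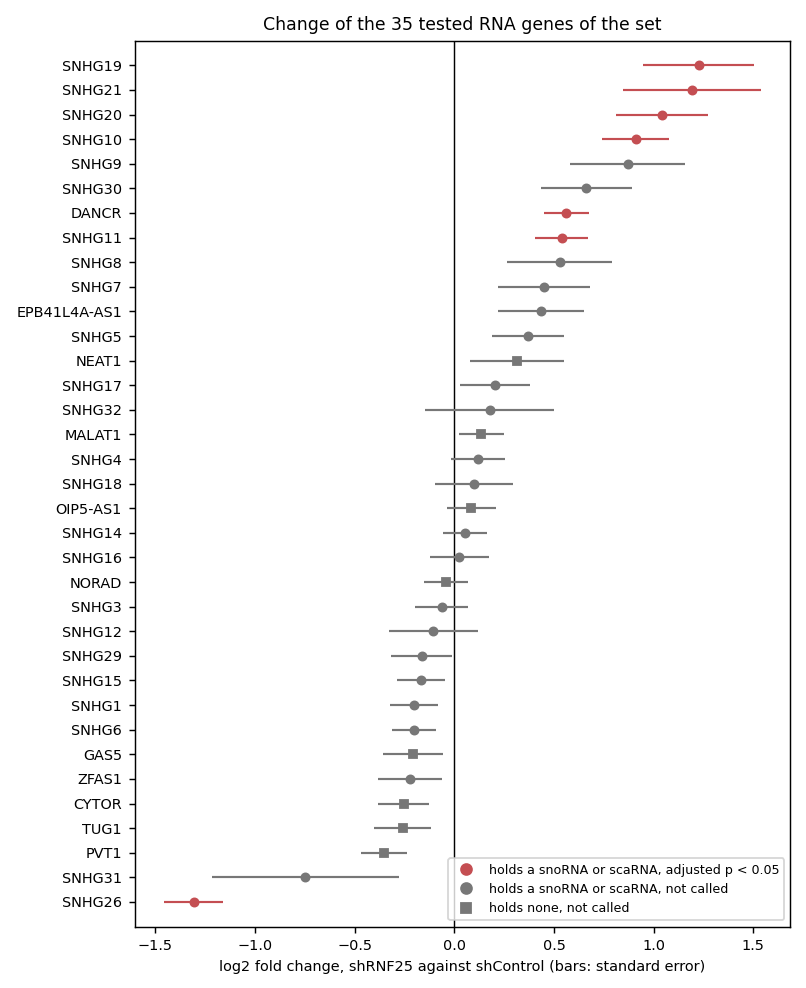
Log2 fold change of shRNF25 against shControl for the 35 tested genes, with bars of 1 standard error, red for an adjusted p under 0.05, circles for genes that hold a snoRNA or scaRNA and squares for genes that hold none. SNHG26 at -1.31 lies apart from the other genes on the left, and the 6 red circles on the right run from 0.54 to 1.22.

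SNHG26 (chr7:22854178-22861579, plus strand), the host of SNORD93, was the only gene of the set called lower. Its normalized counts were 226, 267 and 224 in the shControl libraries and 101, 89.6 and 96.3 in the shRNF25 libraries. The highest shRNF25 value was below the lowest shControl value, and the 3 libraries of each group lay close together. The mean fell from 239 ± 24.1 to 95.7 ± 5.80 (SD, n = 3). The fitted log2 fold change was -1.31 (SE 0.15, adjusted p = 0.00046). The 95% interval of the log2 fold change was -1.64 to -0.98. No annotated exon of another gene overlaps SNHG26 exons by 5% or more. This decrease was called in all 16 alternatives that were run, including each fit that left out a library. In bulk RNA, fewer cells that express a gene and less RNA per cell cannot be told apart.

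The 3 tested hosts of a scaRNA all rose, a grouping made after their values were seen. SNHG10 (chr14:95532297-95534872, minus strand) had 47.5, 43.1 and 47.5 normalized counts in shControl and 86.6, 88.7 and 86.7 in shRNF25. These are 42 to 44 reads against 91 to 96 reads. The values within a group were nearly equal, and the groups were far apart, a fitted increase of 1.88-fold with a log2 fold change of 0.91 (SE 0.17, adjusted p = 0.0053) that was called in 16 of 16 alternatives. Of the annotated SNHG10 exon bases, 20.1% also lie in exons of GLRX5 on the opposite strand, whose own log2 fold change was 0.07 (adjusted p = 0.739). Whether the reads were counted by strand is not given in the sources used here, and if they were not, reads of genes on opposite strands cannot be told apart.

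SNHG20 (chr17:77086716-77099902, plus strand) had 87.3, 154.9 and 163 normalized counts in shControl and 272, 248 and 288 in shRNF25. The mean rose from 135 ± 41.6 to 269 ± 19.8 (SD, n = 3), with a fitted log2 fold change of 1.04 (SE 0.23, adjusted p = 0.0125). The lowest value came from shControl replicate 1, and without that library the log2 fold change was 0.75 (adjusted p = 0.0012). SEC14L1, which contains SCARNA16 on the same strand too and shares 7.56% of the SNHG20 exon bases, had a log2 fold change of 0.24 (adjusted p = 0.117).

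SNHG21 (chr15:82750564-82757206, plus strand) was read at a low level, with 9, 26 and 21 reads in shControl and 46, 45 and 48 in shRNF25. As normalized counts these were 9.95, 26.7 and 22.7 against 41.9, 41.6 and 45.8. All shRNF25 values were above the shControl values, with a log2 fold change of 1.19 (SE 0.34, adjusted p = 0.0376), or 0.78 (adjusted p = 0.021) without shControl replicate 1. The call was kept in 10 of 16 alternatives. Of its exon bases, 72.9% also lie in exons of AC105339.2 on the same strand and 34.1% in FSD2 on the opposite strand, so its reads could be split between genes by the counting, and its value is uncertain for that reason.

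Among the 12 tested hosts of H/ACA snoRNAs, DANCR and SNHG11 rose and the other 10 were not called. DANCR (chr4:52712404-52720351, plus strand), an RNA studied for keeping cells undifferentiated, was the most abundant of the called genes. It had 648, 787 and 665 normalized counts in shControl and 1029, 1046 and 1015 in shRNF25. The shRNF25 libraries differed by a coefficient of variation of only 1.52%, against 10.8% in shControl. The log2 fold change was 0.56 (SE 0.11, adjusted p = 0.0086), a fitted increase of 1.48-fold that is just under the fold the study asked for. SNHG11 (chr20:38446578-38450921, plus strand) showed a change of like size, from 200, 246 and 224 to 334, 305 and 335, with a log2 fold change of 0.54 (SE 0.13, adjusted p = 0.02).

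SNHG9, the host of SNORA78, was also higher without overlap (12.2, 20.5 and 13.0 against 25.5, 34.2 and 24.8 normalized counts), but rested on 11 to 37 reads a library and had an adjusted p of 0.0629. EPB41L4A-AS1, the host of SNORA13, had 117, 189 and 166 in shControl and 240, 165 and 231 in shRNF25. Its groups overlapped, and the log2 fold change of 0.44 (SE 0.22, adjusted p = 0.184) did not pass the test. Of its exon bases, 49.6% lie opposite to EPB41L4A exons.

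SNHG8, SNHG7, SNHG17, SNHG4, SNHG3, SNHG12, SNHG15 and SNHG31 completed the H/ACA hosts (SNHG12 holds a C/D snoRNA too and counts in both classes), with log2 fold changes from 0.53 in SNHG8 to -0.75 in SNHG31 and adjusted p-values of 0.187 or more. In SNHG31, the lowest of the tested genes, 33.2 normalized counts in shControl replicate 1 stood against 13.3 and 13.0 in the other controls and 15.5, 5.54 and 12.4 in shRNF25. Without that library its log2 fold change was -0.32. That library was the highest for SNHG31 but the lowest for SNHG7 and SNHG8, whose log2 fold changes without it were 0.16 and 0.28.

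Of the 13 tested hosts of C/D snoRNAs, SNHG26 fell and SNHG19 rose. SNHG19 (chr16:2154797-2155358, minus strand), the host of SNORD60, has only 342 annotated exon bases. Its normalized counts were 18.8, 35.9 and 19.4 in shControl and 53.8, 52.6 and 63.9 in shRNF25, from 17 to 35 and from 57 to 67 reads. No shControl value reached the shRNF25 values. The fitted log2 fold change was 1.22 (SE 0.28, adjusted p = 0.0143), which differs from that of SNHG21 by less than the standard errors.

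The abundant C/D hosts moved little. SNHG1, the host of a row of C/D snoRNAs and the host with the most reads, had 2214, 2093 and 1768 normalized counts in shControl and 1633, 1739 and 1900 in shRNF25. The groups overlapped, with a log2 fold change of -0.20 (SE 0.12, adjusted p = 0.265). SNHG29 had 990.5, 1431 and 1322 against 1061, 1007 and 1245 and SNHG16 had 820.2, 1154 and 1118 against 1082, 1075 and 959.9, again with overlap. Log2 fold changes were -0.17 (adjusted p = 0.482) in SNHG29 and 0.025 (adjusted p = 0.921) in SNHG16, with 95% intervals of -0.51 to 0.18 and -0.30 to 0.35. For both genes shControl replicate 1 was the lowest library, and without it SNHG29 was called lower at -0.32 (adjusted p = 0.0336) and SNHG16 turned to -0.13 (adjusted p = 0.247).

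SNHG14, the long imprinted transcript across the SNORD115 and SNORD116 arrays on chromosome 15, had 1865, 1560 and 1775 normalized counts in shControl and 1745, 1729 and 1904 in shRNF25. With a log2 fold change of 0.05 (95% interval -0.20 to 0.30, adjusted p = 0.776) no difference was detected. Inside it lie 83 of the 134 named small RNA genes found in the set. ZFAS1, the host of SNORD12, SNORD12B and SNORD12C, had 247, 295.5 and 337 against 267, 214 and 269, a log2 fold change of -0.22 (SE 0.16, adjusted p = 0.354).

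GAS5, named for its accumulation in growth-arrested cells, had 766, 946 and 649.7 normalized counts in shControl and 717, 615 and 690.1 in shRNF25. The shControl range contained 2 of the 3 shRNF25 values, and the log2 fold change was -0.21 (SE 0.15, 95% interval -0.55 to 0.13, adjusted p = 0.353). The remaining C/D hosts were SNHG5, SNHG6, SNHG12, SNHG18, SNHG30 and SNHG32. SNHG30 had the largest change among them, from 60.8, 102.6 and 104.7 to 139, 122 and 154, with a log2 fold change of 0.66 (SE 0.23, adjusted p = 0.0693). SNHG5, at 140.4, 226 and 196 against 236, 240.1 and 237, was the most uniform gene of the set within shRNF25, with a coefficient of variation of 0.882%. SNHG6 lay at -0.20 (adjusted p = 0.226), SNHG18 at 0.10 (adjusted p = 0.753) and SNHG12 at -0.11 (adjusted p = 0.774). SNHG32, annotated as protein coding in GENCODE 29, had 286 normalized counts in shControl replicate 1 against 830.1 and 632 in the other controls, and its sign turned from 0.18 to -0.27 without that library (adjusted p = 0.738 and 0.15).

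**Figure D3:**
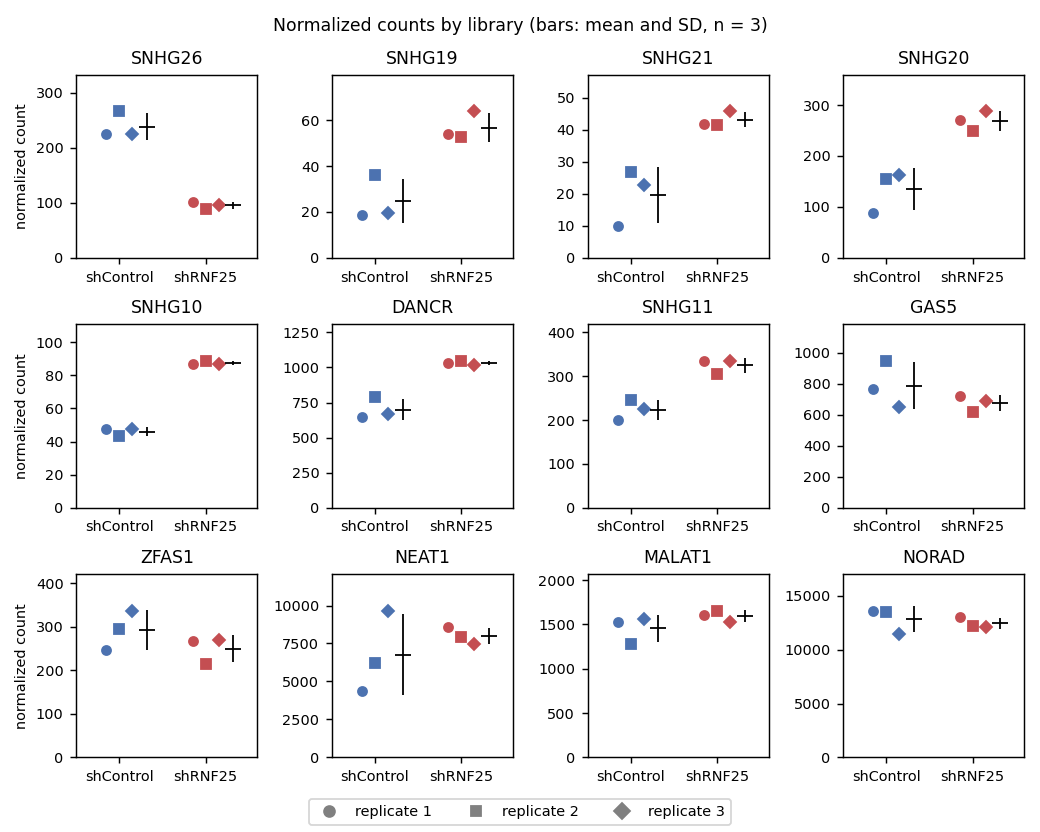
Normalized counts of 12 genes in the 3 shControl and 3 shRNF25 libraries, with marker shapes for replicates and black bars for the mean and SD (n = 3). The 7 called genes, from SNHG26 to SNHG11, have groups that do not overlap, whereas GAS5, ZFAS1, NEAT1, MALAT1 and NORAD have overlapping groups.

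None of the long RNAs outside the snoRNA hosts passed the test. NORAD (chr20:36045622-36050960, minus strand), which keeps Pumilio proteins away from their targets, had 13597, 13496 and 11415 normalized counts in shControl and 12996, 12155 and 12124 in shRNF25. The log2 fold change was -0.04 (SE 0.11, 95% interval -0.29 to 0.21, adjusted p = 0.815), and its sign changed under other scalings (0.19 after quantile normalization). NEAT1 (chr11:65422774-65445540, plus strand) had 4402, 6242 and 9654 in shControl and 8555, 7933 and 7497 in shRNF25. The shRNF25 values fell within the wide control range, and the log2 fold change was 0.31 (SE 0.24, 95% interval -0.22 to 0.85, adjusted p = 0.38). NEAT1 depended on which control was used, with a log2 fold change of 0.04 (adjusted p = 0.867) without shControl replicate 1 and a called increase of 0.61 (adjusted p = 0.0276) without shControl replicate 3.

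MALAT1 (chr11:65497688-65506516, plus strand) was steadier, at 1527, 1284 and 1561 normalized counts in shControl and 1602, 1654 and 1527 in shRNF25. Its log2 fold change was 0.13 (SE 0.11, 95% interval -0.12 to 0.39, adjusted p = 0.429). OIP5-AS1, a spliced RNA also called cyrano, had 1729, 1309 and 1427 against 1554, 1556 and 1594 (log2 fold change 0.08, adjusted p = 0.658).

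TUG1, CYTOR and PVT1 were lower in every shRNF25 library than in any shControl library without being called. TUG1 had 4298, 2984 and 3154 normalized counts in shControl and 2921, 2919 and 2759 in shRNF25, where replicate 1 of shControl accounted for most of the distance. With all libraries the log2 fold change was -0.26 (adjusted p = 0.225), and without that replicate it was -0.10 (adjusted p = 0.313). CYTOR had 441, 370.4 and 390 against 318, 320.5 and 367 (log2 fold change -0.26, SE 0.13, adjusted p = 0.191). PVT1, the RNA next to MYC, had 557, 618 and 668 against 463, 492 and 484. Its log2 fold change was -0.35 (SE 0.12, adjusted p = 0.0605), and without shControl replicate 1 it was called at -0.42 (adjusted p = 0.0052). MYC itself fell by 0.75 on the log2 scale (SE 0.12, adjusted p = 0.0027), from 7364, 5884 and 6874 to 3664, 4256 and 4029.

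The other 3 genes stayed below the filter. SNHG22 had 1 to 4 reads a library, SNHG25 had 0 to 6 and SNHG27 had 0 or 1, and no difference was detectable for them at this depth. Counts of so few reads carry their own counting error, and normalized counts of the low genes SNHG9, SNHG19, SNHG21 and SNHG31 are limited in the same way.

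Variation between libraries was not even. The coefficient of variation was larger in shControl than in shRNF25 for 35 of 35 tested genes, with a median of 18.4% against 6.07% (18.2% and 6.70% over all tested genes). Replicate 1 of shControl was the lowest of the 3 controls in 21 of 35 genes (60%, against 39.5% of all tested genes) and the lowest of all 6 libraries in 19. SNHG20, SNHG21, SNHG8, SNHG7, SNHG32, SNHG30 and NEAT1 were among them. Without this library 4 genes of the set were called lower (SNHG26, PVT1, SNHG15 and SNHG29) and the same 6 were called higher, where 33.8% of all genes were called. Leaving out shRNF25 replicate 1, 2 or 3 instead left 1 (SNHG10), 2 (SNHG10 and SNHG20) or 2 (SNHG10 and DANCR) genes called higher, where 9.87% to 10.4% of all genes were called.

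**Figure D4:**
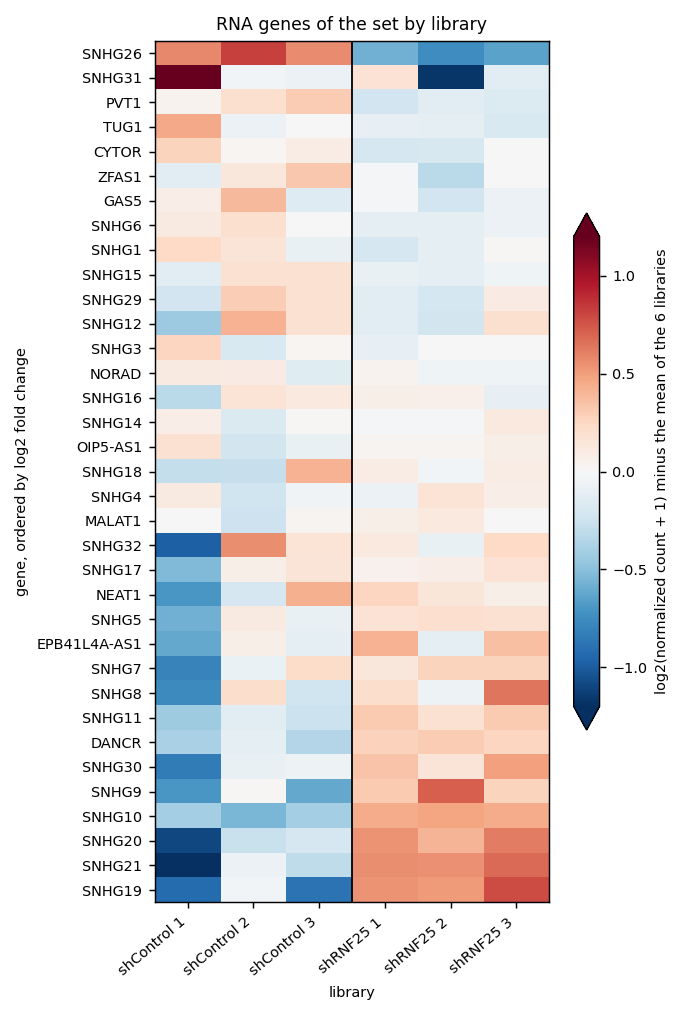
Deviation of log2(normalized count + 1) from the mean of the 6 libraries for the 35 tested genes (rows, ordered by log2 fold change) and the 6 libraries (columns), with red for higher and blue for lower values. The shControl 1 column holds the lowest control value in 21 of 35 rows, and the 3 shRNF25 columns resemble each other.

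The small RNAs inside the hosts were read from the same table. Of the 134 named snoRNA and scaRNA genes inside the set, 13 were listed in the table and 3 of those passed the filter, and all 13 lie in introns of their hosts. The study's methods describe a selection of short RNA fragments by size before ligation, and reads from a small RNA and from unspliced host RNA around it cannot be told apart here. SNORA73B, inside SNHG3, had 13.3, 19.5 and 16.2 normalized counts in shControl and 4.56, 10.2 and 10.5 in shRNF25 (log2 fold change -0.94, SE 0.37, adjusted p = 0.105). SNORA71B, inside SNHG17, lay at -0.46 (adjusted p = 0.283) and SNORD104, inside the barely read SNHG25, at 0.56 (adjusted p = 0.363). Their hosts SNHG3 and SNHG17 had log2 fold changes of -0.06 and 0.20. Of the small RNAs whose hosts were called, only SNORD93 in SNHG26 was listed, with 5, 1 and 2 reads in shControl and 2, 0 and 2 in shRNF25, too few to show a change.

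Letters like those of a TOP tract were looked for around the start of each host, because many hosts share that feature. In RefSeq (GRCh38.p14) a start was listed for 32 of the 38 genes. The letters CTTTT or CTTTC, read on the gene's own strand within 15 bases on either side of the start, were found for 10 of 24 tested hosts (41.7%), against 6.46% of 11370 tested genes and 7.56% of the 27305 genes in that list. None of the 7 other matched genes held them. For some genes, GAS5 and SNHG14 among them, the RefSeq start lay outside the span of the gene in GENCODE 29. Among the called hosts, SNHG26 and SNHG19 held them and the other 5 did not. In SNHG26 the letters lie upstream of the listed start and in SNHG19 at the start. Holding the letters within the window therefore does not by itself show a TOP tract. The windows of SNHG26 (chr7:22854225-22854254, plus strand) and SNHG19 (chr16:2155344-2155373, minus strand) are shown with those letters in capitals, beside SNHG10 (chr14:95534858-95534887, minus strand) and SNHG20 (chr17:77088628-77088657, plus strand), which lack them.
SNHG26: cCTTTTaaacttgatctccgcagtgccctc
SNHG19: ctcgcccgcccctgtCTTTTcggggtcgag
SNHG10: tgggccttatgccggagcctcatcctactg
SNHG20: atcacttccggccggaagttgctgacggag

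Hosts with the letters had log2 fold changes from -1.31 to 1.22 with a median of 0.07, and hosts without them from -0.75 to 1.19 with a median of 0.44. By exon length, the 9 genes with under 2000 annotated exon bases had a median log2 fold change of 0.66, with 8 above 0, and the 26 longer ones a median of -0.009, with 13 on each side. Low genes were higher in shRNF25 across the table, with a median of 0.21 over the 5215 tested genes below 100 normalized counts and -0.10 over the 4546 genes with 1000 or more. The 5 genes of the set below 100 had a median of 0.91, and the 9 with 1000 or more a median of 0.025. These are descriptions, and the part of length or level in the changes was not tested.

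**Figure D5:**
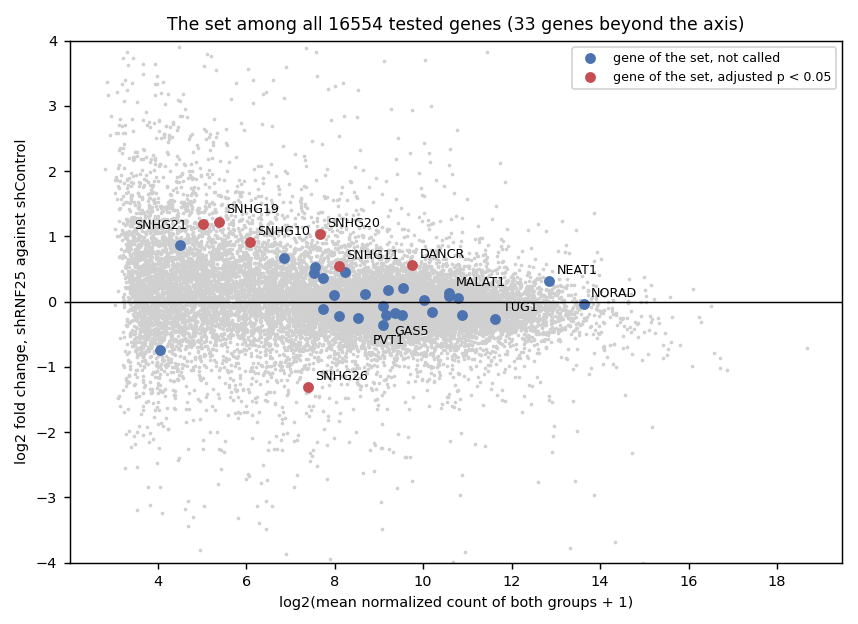
Log2 fold change against log2 of the mean normalized count for all 16554 tested genes (grey, 33 beyond the axis) and for the set (blue, or red for an adjusted p under 0.05). The 6 red genes above 0 sit among the low and middle levels, with DANCR the highest of them, while NORAD and NEAT1 lie near 0 at the right.

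The proteins and RNAs that work with these genes were read in the same fit, in which 10.8% of all tested genes were called lower and 10.5% higher. The counts below are descriptions, and whether any list differs from those shares was not tested. Of 16 core and assembly proteins of the snoRNA particles, RUVBL2, an assembly ATPase, was called lower (log2 fold change -0.46, adjusted p = 0.0284) and 15 were not called, with a median of -0.12. FBL, the methyltransferase of C/D particles, went from 3359, 4365 and 3183 to 2387, 2965 and 2699 without overlap (log2 fold change -0.43, adjusted p = 0.0621). SHQ1 of the same list went the other way, from 403, 419 and 387 to 467, 524 and 571 without overlap (log2 fold change 0.36, adjusted p = 0.0635). The 30 protein-coding snoRNA hosts had a median of -0.19, and none was called higher. Non-ribosomal TOP messenger RNAs had 1 of 15 called lower (EIF3H, a subunit of initiation factor eIF3, -0.48, adjusted p = 0.0321), 0 higher and a median of -0.25.

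None of 19 nonsense-mediated decay factors was called, with a median log2 fold change of 0.006. SMG9 lay at 0.35 (adjusted p = 0.0908) and SMG5 at 0.34 (adjusted p = 0.119). Coding transcripts known as decay targets had 0 of 7 called and a median of -0.005, with UPP1 at -0.44 (adjusted p = 0.0608) and ATF4 at -0.19 (adjusted p = 0.202).

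Of 15 paraspeckle proteins, DAZAP1 (-0.42, adjusted p = 0.0276) and SMARCA4 (-0.42, adjusted p = 0.0156) were called lower and none higher. NONO and SFPQ, which build paraspeckles on NEAT1, had log2 fold changes of -0.15 (adjusted p = 0.413) and 0.06 (adjusted p = 0.774). Nuclear speckle proteins had 1 of 18 called lower (RNPS1, -0.60, adjusted p = 0.0302) and 2 higher, the splicing factors SRSF1 (0.47, adjusted p = 0.019) and SRSF5 (0.44, adjusted p = 0.0134). Of 9 protein partners or neighbours of the other RNAs, MYC, ELAVL1 (-0.36, adjusted p = 0.0398) and EZH2 (-0.48, adjusted p = 0.0464) were called lower and none higher. Of 6 other tested nuclear or structured RNAs, H19 was called higher, from 5.53, 3.08 and 5.40 to 14.6, 17.5 and 18.1 (1.67, adjusted p = 0.0087), at a level near the filter. H19 passed the filter only through its shRNF25 libraries, the group in which it was high.

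Together the 38 genes took 0.195% ± 0.0168 of the counted reads in shControl and 0.227% ± 0.00874 in shRNF25 (SD, n = 3). The 3 shRNF25 shares (0.237%, 0.22% and 0.224%) were above the shControl shares (0.176%, 0.2004% and 0.208%). These are shares of reads that were not divided by the size factors. With the mitochondrial genes left out of the total, the shares were 0.208% ± 0.00846 and 0.236% ± 0.00826. NORAD alone supplied 31% of the reads of the set and NEAT1 moved most in the controls, from 0.02% to 0.048% of all reads. The size factors were larger in every shRNF25 library than in any shControl library, at similar read totals. A gene with unchanged normalized counts therefore takes a larger share in shRNF25. For NORAD the mean share was 0.0616% in shControl and 0.069% in shRNF25, at a log2 fold change of -0.04. The shares thus do not show that the set rose on the normalized scale.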

How the data were processed

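Bulk total RNA-seq of 6 SW839 libraries was analysed, 3 shRNF25 and 3 shControl, grouped by the library names in the labels. RNA was depleted of ribosomal RNA and sequenced from a stranded kit. The submitters' processing notes name fastp, HISAT2, HTSeq and GRCh38. The annotation and the strand setting of the counting are not given in the sources used here. The authors deposited normalized counts, a signal made by dividing reads by a size factor (0.905 to 1.10), and whole reads came back for 100% of values within 0.05 reads. Totals were 18647460 to 19943154 reads per library. Counts of few reads have counting error on top of the spread between libraries.

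The groups were compared with limma 3.58.1 in R 4.3.3 on log2(normalized count + 1), with no covariate, for the 16554 of 30267 genes that reached 10 in 3 or more libraries. P-values were adjusted over all tested genes by the method of Benjamini and Hochberg. Fold changes are fitted on this log2 scale, where the pseudocount of 1 draws those of low genes towards 0, and they can differ from the ratio of the printed means. The files held normalized values where counts were possible, so edgeR 4.0.16 and DESeq2 1.42.0 ran on recovered reads as alternatives only. The code was tested on simulated data. Positions, exon lengths and small RNA genes came from GENCODE 29, and start windows from RefSeq GRCh38.p14.

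The genes of the set and all gene lists were chosen with earlier results of these data known. Genes given with all values were the 11 named by symbol, SNHG genes with the largest change among those called, the 4 most abundant SNHG genes and, per list, those with the smallest adjusted p. SNHG5, SNHG9, SNHG30, SNHG31, SNHG32 and some list members were added after their values were seen. Results for some genes of the lists and some overlapping genes are not reported here.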

Additional observations from a re-analysis of the deposited data

How the results depend on the processing

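Other pseudocounts, filters, scalings, tools, library weights and the replicate number were tried, 16 alternatives in all. For single named genes, 325 of 351 values had the same direction and the same side of the threshold as reported, 15 lost the call, 3 gained it and 8 changed sign. NORAD changed sign, with 0.19 after quantile normalization and 0.023 after scaling on the median ratio of genes with a mean of at least 100. With each library left out in turn, NORAD lay between -0.13 and 0.00077 (log2 fold change), SNHG16 between -0.13 and 0.12, OIP5-AS1 between -0.0027 and 0.20 and SNHG14 between -0.023 and 0.11. None of these 4 was called in any of those fits. Over the same fits the number of genes called lower ranged from 1 to 4, called higher from 1 to 8, and higher at the study's criteria from 1 to 7 (lower, 1 in each). These fits tested fewer libraries. The share of counted reads in shRNF25 was 0.236% without mitochondrial genes. SNHG21 lost its call without the filter on low values (adjusted p = 0.0614) and with quantile normalization (adjusted p = 0.0663), and it was not tested with a minimum of 50. Scaling on genes with a mean of at least 100 turned the calls over all genes from 1785 lower and 1740 higher to 1414 and 2013, and 6 in place of 4 genes of the set were then higher at the study's criteria. SNHG30 was called with DESeq2 (adjusted p = 0.0431). With that tool 5 in place of 4 genes of the set were higher at the study's criteria, and 1 was lower. The replicate number as a block left 1 gene called lower and 6 called higher, with 1527 and 1557 of all genes (no block, 1785 and 1740). The deviations of same-numbered libraries from their group means correlated at -0.064, -0.087 and 0.047, so no shared deviation was seen. Whether same-numbered libraries were prepared together is not given in the labels. These correlations cannot decide it, because the spread of single libraries can hide a shared part. Few reads limit SNHG9, SNHG19, SNHG21, SNHG31, the untested SNHG22, SNHG25 and SNHG27, and the small RNAs.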

Other observations

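The 3 tested hosts of a scaRNA in the set, SNHG10, SNHG20 and SNHG21, were all called higher, a grouping made after their values were seen. Other genes of the table that contain a scaRNA gene on their own strand numbered 18 among those tested. Of these, HAUS6 (log2 fold change -0.52, adjusted p = 0.0262) and NSD2 (-0.41, adjusted p = 0.0312) were called lower and ATG16L1, an autophagy gene that contains scaRNA genes, was called higher (0.58, adjusted p = 0.0054). The median of the 18 was -0.037, and 16.7% of them were called, against 21.3% of all tested genes. No difference between the long noncoding and the other scaRNA hosts was tested.

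Hosts of the other snoRNA classes outside the set were read in the same way. Over all tested genes 21.3% were called, and 51.2% had a log2 fold change below 0. Of 81 other tested genes with an H/ACA snoRNA, 12.3% were called, 5 in each direction, with a median log2 fold change of -0.058. Of 65 other tested genes with a C/D snoRNA, 10.8% were called, 4 lower and 3 higher, with a median of -0.15 and 72.3% of values below 0. The 12 H/ACA hosts in the set had a median of 0.32 and the 13 C/D hosts a median of 0.025.

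RN7SL1, the RNA of the signal recognition particle, had 181, 560 and 287 normalized counts in shControl and 400 and 427 in 2 shRNF25 libraries, but 1717 in shRNF25 replicate 1.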
